A study of Homo sapiens with 54 samples.

Results

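The USP and OTU deubiquitinases other than USP18 were followed across all 54 libraries of an RNA-seq study of A549 human lung adenocarcinoma cells, an established cell line. The members were found by symbol from a list of 53 genes. No measured value enters that rule, but the list was drawn up with earlier results of these data known. Of these, 52 had a row of their own among the 58870 genes of the table and 1 was not analysed here. They comprise 43 ubiquitin-specific proteases (USP) and 9 ovarian tumour domain proteases (OTU).

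Deubiquitinases are proteases that cut ubiquitin from proteins or from other ubiquitin molecules, and so decide how long many proteins last and which complexes they join. USP and OTU enzymes are mostly cysteine proteases. Several act in fixed partnerships, such as USP1, USP12 and USP46 with the activator UAF1 (WDR48), USP22 with the SAGA transcription complex and USP14 with the proteasome. USP18 belongs to the USP family but removes the ubiquitin-like protein ISG15, and the study screened for compounds that inhibit it.

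Of the 2 sets of cells compared, one carried an empty vector without insert (E_V in the labels) and the other a vector expressing USP18 (USP18_O_E in the labels, here USP18 cells). Treatment lasted 48 h in both, with DMSO as the vehicle or with 1 of 3 compounds known from the labels by a code, CP2 at 2 or 5 µM, CP14 at 1, 2.5 or 5 µM, or CP18 at 1, 2.5 or 5 µM. Each of the 18 groups had 3 replicates. The labels do not say how many engineered populations stand behind each vector, nor that replicates came from separate cultures. The p-values therefore measure the spread between these libraries. A difference between the vectors cannot be told apart from a difference between the engineered populations. Protein and enzyme activity were not measured here.

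Library totals ran from 16673228 to 25609062 expected counts (RSEM estimates of fragments per gene, as deposited). Replicates were least alike with 5 µM CP18 and 5 µM CP2 in empty-vector cells, where a chi-square per gene between replicate pairs was 4.85 to 11.9 and 7.6 to 9.37, against 1.8 to 6.85 in the other groups, and the lowest correlation with its group (0.9925) was that of replicate 3 with 5 µM CP18. USP18 itself stood at 10.8 ± 0.25 CPM (counts scaled to library size by edgeR's TMM; SD, n = 3) in empty-vector cells and at 1310 ± 18.5 CPM in USP18 cells with vehicle. Within USP18 cells it was at 2050 ± 76.2 CPM with 5 µM CP14 and at 981 ± 29.9 CPM with 1 µM CP18. Keratins KRT8 and KRT18 were abundant (medians 3840 and 3600 CPM). The NRF2-driven genes known to be high in A549 cells, NQO1, AKR1B10, AKR1C1 and ALDH3A1, had medians of 1500, 1500, 252 and 573 CPM. The epithelial markers KRT19 (3.65 to 50.9 CPM), CDH1 (21.2 to 239 CPM) and EPCAM (1.33 to 14.8 CPM) stood lower. CDKN2A, whose locus A549 cells have lost, had 0 counts in every library. The leukocyte, endothelial and fibroblast markers PTPRC, PECAM1, COL1A2 and DCN reached at most 0.497 CPM. The summed level of the 9 A549 and epithelial markers was 17290 to 17590 CPM in empty-vector cells and 9890 to 10160 CPM in USP18 cells with vehicle, and 8653 to 8845 CPM and 4120 to 4439 CPM with 5 µM CP14.

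Levels of the members in empty-vector cells with vehicle spanned a wide range when divided by the length of all annotated exons, from 0.034 to 57.7 CPM per kilobase with a median of 5.65. The highest was USP22, the histone H2B protease of SAGA, followed by USP5 at 44.4 CPM per kilobase, USP9X at 30.7, OTUD5 at 25.9 and USP10 at 24.0. USP5 takes apart unanchored ubiquitin chains. At the low end stood OTUD7A (0.034 CPM per kilobase), USP44 (0.121) and USP2 (0.265). These 3 genes rested on few fragments, and OTUD7A had between 1 and 47.5 counts in any library. For USP32 and USP31 nearly all values were fractional (0 and 1 of 54 were whole), so RSEM had divided reads between them and other genes, and their values are uncertain. In GENCODE v44, 10 members share over 10% of their exon bases with other genes, USP49 (52.9%), USP47 (41.4%), USP37 (32.8%), USP2 (25.2%), USP54 (23.8%), USP31 (22.7%), USP34 (17.7%), USP13 (16.3%), OTUB2 (15.2%) and USP22 (13.3%). Except for USP31, each of these members had whole values in all 54 libraries, so no division of its reads by RSEM shows there. The strand setting of the counting was not given in the sources used here. Whether their values include reads of those genes was not tested.

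The first comparison asked how the members differed between USP18 cells and empty-vector cells with vehicle alone. With 51 members tested (OTUD7A was too scarce for the test in these 6 libraries), 24 were higher and 8 lower in USP18 cells at an adjusted p under 0.05 (edgeR's quasi-likelihood test, Benjamini-Hochberg adjustment over all genes). These 32 members were 62.7% of those tested, beside 57.6% of all 15252 genes, of which 29.0% were higher and 28.7% lower. With DESeq2 the number of members called in either direction was 24 in place of 32. Only USP44 also passed an absolute log2 fold change of 1, a size that 10.1% of all genes reached with an adjusted p under 0.05. The median absolute log2 difference was 0.19 over the members and 0.25 over all genes. Of 9 A549 and epithelial markers, 8 were lower in USP18 cells in the same comparison, with a median of -1.20, and their part in the result was not tested. In bulk RNA, a lower level in each cell and fewer cells with an mRNA cannot be told apart.

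USP44 (chr12:95516560-95551476, minus strand, hg38), which removes ubiquitin from histone H2B and acts in the spindle checkpoint, had the largest difference. Its levels were 0.753, 0.449 and 0.754 CPM in empty-vector cells and 1.74, 2.00 and 2.15 CPM in USP18 cells. The groups did not overlap, and the difference was 1.56 on the log2 scale (SE 0.30, adjusted p = 0.0002), a 2.95-fold higher level from counts of 8 to 45 per library.

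The UAF1-dependent enzymes USP12 and USP46 were higher in USP18 cells as well. USP12 was at 53.1, 53.9 and 56.0 CPM in empty-vector cells and at 80.8, 77.1 and 80.7 CPM in USP18 cells, a log2 difference of 0.55 (SE 0.039, adjusted p = 1.4e-09). USP46 was at 21.9, 20.5 and 20.8 CPM against 27.5, 28.9 and 29.6 CPM, a difference of 0.45 (SE 0.063, adjusted p = 8.6e-06). In both, every USP18 library lay above every empty-vector library. USP1, the UAF1 partner that acts on FANCD2 and PCNA, differed by 0.05 (interval -0.03 to 0.13) and was not called. WDR48 itself was higher by 0.30 (adjusted p = 2.1e-05), and WDR20, a second WD-repeat cofactor of USP12 and USP46, was lower (-0.24, adjusted p = 0.0076).

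Lower in USP18 cells were USP43, USP49, USP10, USP40, USP7, USP38, USP9X and OTUD7B. USP10, which partners the stress granule protein G3BP1 and acts on p53, was at 123, 118 and 125 CPM in empty-vector cells and at 94, 96.5 and 97.3 CPM in USP18 cells (log2 difference -0.34, SE 0.031, adjusted p = 4e-08). USP7, which acts on p53 and MDM2, was lower by a similar amount (-0.32, adjusted p = 1.6e-08). The less abundant USP43 was at 8.00, 9.03 and 7.62 CPM against 5.17, 5.56 and 6.74 CPM (log2 difference -0.49, SE 0.12, adjusted p = 0.0025). USP49, a histone H2B protease, was at 8.47, 10.0 and 8.09 CPM against 6.42, 7.22 and 6.5 CPM (-0.39, SE 0.11, adjusted p = 0.0066), and it missed the threshold with DESeq2 (adjusted p = 0.054). It is the member with the most exon bases shared with other genes.

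By role, the members of NF-κB and innate immune signalling showed 5 higher and 1 lower of 6 tested, beside 29.0% and 28.7% of all genes, with OTUD4 at 0.26, USP21 at 0.31 and OTUD1 at 0.34 on the log2 scale. Among the proteases of endosomes, receptors and membranes, 4 of 8 were higher and 0 lower. They included USP30 of the mitochondrial outer membrane (0.41, adjusted p = 0.00029), USP33 (0.32), USP32 (0.32) and USP20 (0.27). The remaining 4, USP2, USP8, USP19 and OTUD3, ran from -0.19 to 0.05 and were not called. The group of 10 with known roles in DNA damage, p53 and checkpoints was mixed, with 4 higher (USP11, USP24, USP28 and USP48) and 2 lower (USP7 and USP10). Among the rest, USP54 (0.32), USP53 (0.27), USP15 (0.27), USP34 (0.19), USP5 (0.18), OTUD6B (0.18), USP16 (0.16) and USP22 (0.11) were higher. The 19 members that were not called ran from -0.49 for USP51, a scarce histone H2A protease with an interval of -1.04 to 0.06, to 0.15 for OTUB2. The roles had been assigned with earlier results of these data known, and these counts are descriptions.

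The vector difference was then followed through all 9 treatments, each with its own libraries of both cell types. Averaged over them in 1 fit of 54 libraries, 32 members were higher and 15 lower of 52 (90.4% called, beside 79.0% of all 16836 genes, 38.9% higher and 40.1% lower). Of the 52, 21 had the same sign in each of the 9 treatments, against 47.8% of all genes. The sign and an adjusted p under 0.05 held in each treatment for 10 members, against 21.4% of all genes. The higher ones were USP12, USP15, USP30, USP33, USP44, USP46 and USP54, and the lower ones USP7, USP10 and USP40. USP44 had a mean difference of 1.52 (SE 0.10, adjusted p = 9e-19) and ran from 1.29 to 2.05 across treatments. USP12 ran from 0.46 to 0.73, and USP10 from -0.50 to -0.25.

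OTUD7A (chr15:31475398-31870789, minus strand), a K11 linkage-preferring OTU enzyme related to the NF-κB regulator OTUD7B, was lower in USP18 cells in all 9 treatments. Its mean log2 difference was -1.10 (SE 0.18, adjusted p = 5.2e-07), and single treatments ran from -1.53 to -0.69, of which 2 were called. With vehicle its levels were 0.800, 0.505 and 0.159 CPM in empty-vector cells and 0.298, 0.146 and 0.430 CPM in USP18 cells, so those groups overlapped. Counts near the limit of detection carry this estimate, and left out 1 replicate number at a time it ran from -1.43 to -0.92.

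**Figure D1:**
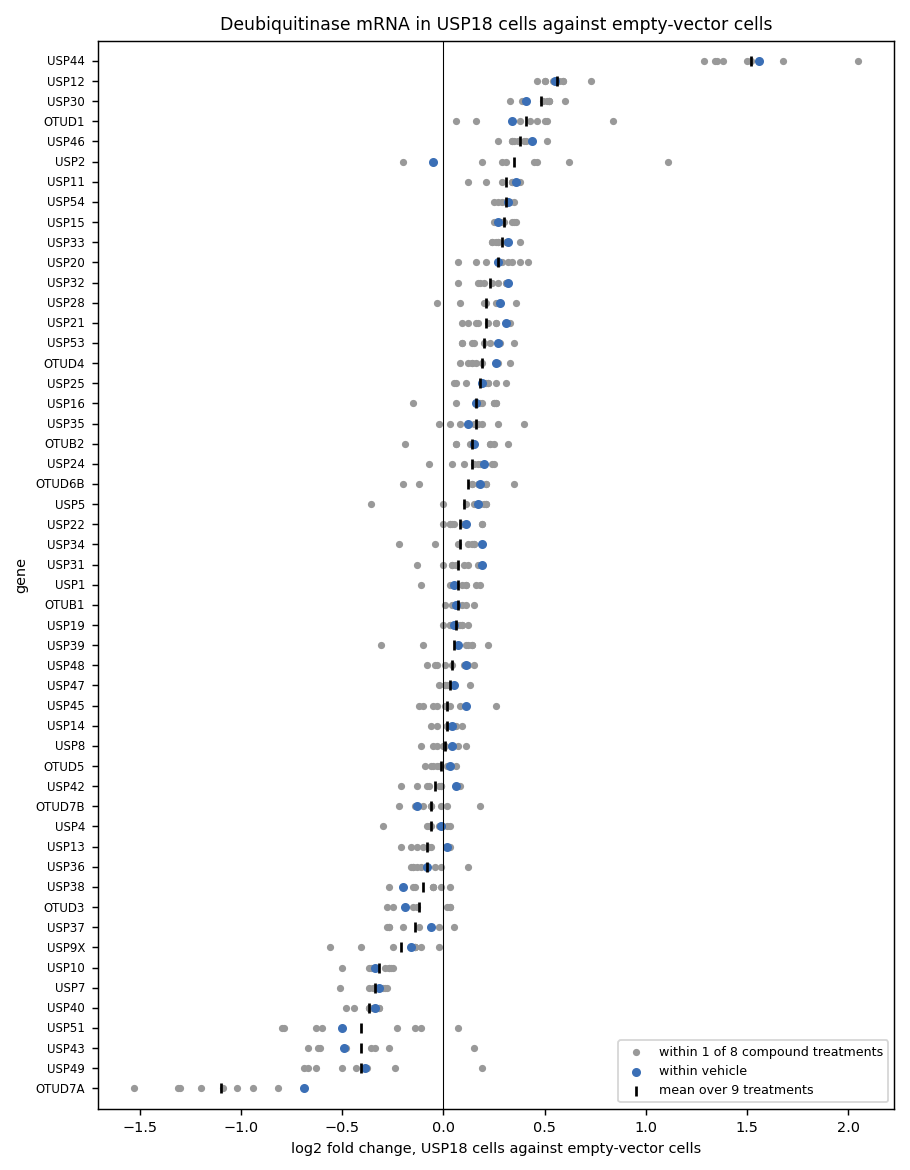
Log2 fold change of each of 52 deubiquitinase mRNAs in USP18 cells against empty-vector cells (x axis), with genes on the y axis ordered by their mean. Blue points are the vehicle libraries, grey points the 8 compound treatments and black bars the mean over 9 treatments, each from 3 libraries per cell type. USP44 lies between 1.29 and 2.05 in every treatment, and USP2 and USP43 have a treatment on each side of 0.

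The second set of comparisons asked how each compound changed the members against vehicle, in each cell type. With 5 µM CP14, 36 of 52 members were called in empty-vector cells (21 higher, 15 lower) and 40 in USP18 cells (19 higher, 21 lower). These are 69.2% and 76.9% of the members, beside 63.2% and 68.6% of all 15947 genes tested. Higher were 31.0% and 34.4% of all genes, and lower 32.1% and 34.3%. In the other 14 comparisons with vehicle there were 77 calls in all, on 27 members, 64 of them lower and 13 higher. Over the 726 tests of members in them, 8.82% were called lower and 1.79% higher (10.6% in all), beside 5.81% and 5.16% of the tests of all genes (11.0% in all). The 2 of them with an absolute log2 change over 0.5 were USP44 (0.78) and OTUB2 (0.56), both with 2.5 µM CP14 in USP18 cells. All comparisons within a cell type share the same 3 vehicle libraries.

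**Figure D2:**
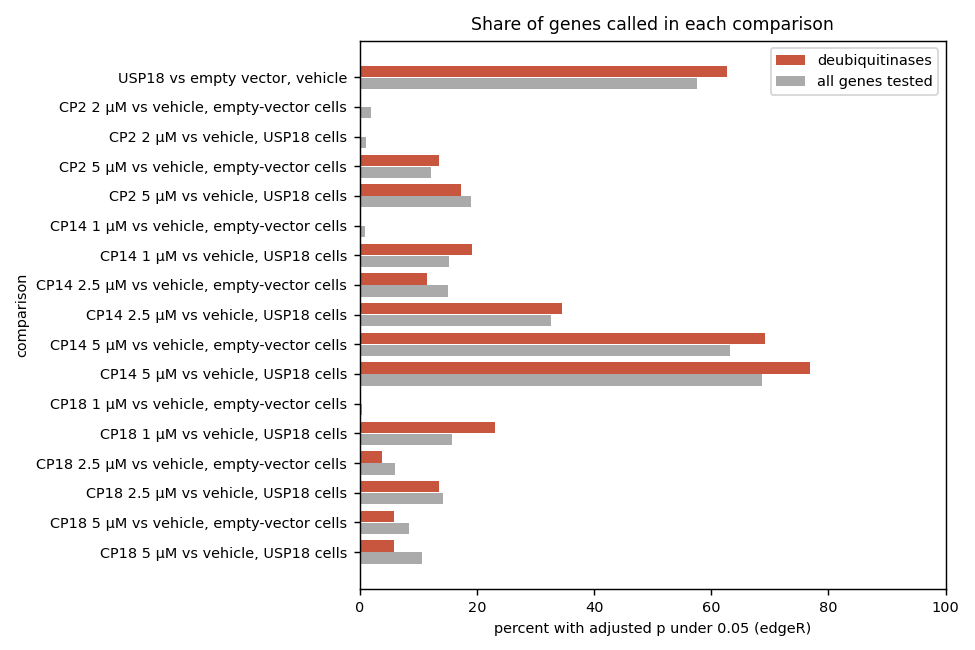
Percent of deubiquitinases (red) and of all genes tested (grey) with an adjusted p under 0.05 in edgeR's test (x axis, 0 to 100%), for the vector comparison with vehicle and each compound and dose against vehicle (y axis). The bars for the deubiquitinases lie near those for all genes, for example 69.2% and 63.2% with 5 µM CP14 in empty-vector cells.

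With 5 µM CP14, 14 members rose in both cell types and 13 fell in both, beside 24.7% and 25.8% of all genes. OTUD6B, an OTU enzyme linked to translation, rose with the empty vector (0.18) but fell in USP18 cells (-0.20), while USP43 fell in empty-vector cells (-0.30) and rose in USP18 cells (0.34), and 2.10% of all genes were called in opposite directions. The same 9 markers had 8 lower in each cell type at this dose (medians -0.76 and -1.01), and their part was not tested. Past a log2 change of 1 were USP44 and OTUD7A in both cell types and, in USP18 cells, USP2 and USP5. Of all genes, 13.8% and 18.0% were called at that size.

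USP44 was at 2.23, 2.20 and 2.48 CPM with 5 µM CP14 in empty-vector cells and at 6.58, 5.64 and 5.78 CPM in USP18 cells. All of these lay above the vehicle libraries of the same cells given above. The log2 change was 1.78 (SE 0.23, adjusted p = 9.8e-07) and 1.60 (SE 0.18, adjusted p = 6.3e-08). The responses differed by -0.17 (interval -0.78 to 0.43), and the difference was not called.

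OTUD7A was at 2.51, 2.40 and 2.04 CPM with 5 µM CP14 in empty-vector cells and at 0.786, 1.43 and 1.02 CPM in USP18 cells. Here too treated and vehicle libraries did not overlap. The changes were 2.27 (SE 0.40, adjusted p = 4.7e-05) and 1.86 (SE 0.47, adjusted p = 0.0016), with 36.6 to 47.5 counts in treated and 4.25 to 16.6 in vehicle libraries of empty-vector cells. Only 11 of its 54 values were whole numbers, so part of its reads was divided by RSEM with other genes, and its values are uncertain too. At 2.5 µM CP14 the log2 change in empty-vector cells was 1.02 and in USP18 cells 0.76, neither called. Without 1 library at a time these ran from 0.55 to 1.62 and from 0.45 to 1.15, and the changes at 5 µM from 1.80 to 2.88 and from 1.56 to 2.27.

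USP2 (chr11:119355215-119381711, minus strand), a protease with roles in the circadian clock and in cyclin D1 and MDM2 turnover, was at 1.54, 0.780 and 1.15 CPM with vehicle and at 2.85, 4.60 and 4.35 CPM with 5 µM CP14 in USP18 cells. The log2 change there was 1.75 (SE 0.27, adjusted p = 5.5e-06). In empty-vector cells it went from 1.36, 1.29 and 0.952 CPM to 2.18, 1.85 and 1.43 CPM without overlap, a difference of 0.61 that was not called (adjusted p = 0.072). Its exons share 25.2% of their bases with the antisense gene USP2-AS1.

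In the group of 4 members placed under free ubiquitin and the proteasome, 3 fell and 1 rose in each cell type, beside 25.8% and 24.7% of all genes lower and higher in both. USP5 (chr12:6852148-6866632, plus strand) was at 174, 159 and 162 CPM with vehicle and at 112, 113 and 118 CPM with 5 µM CP14 in empty-vector cells (log2 change -0.54, SE 0.039, adjusted p = 8.9e-11). In USP18 cells it was at 182, 192 and 186 CPM and then at 89.7, 88.4 and 89.4 CPM (-1.07, SE 0.039, adjusted p = 7e-16). USP18 cells thus held more USP5 mRNA than empty-vector cells with vehicle and less with 5 µM CP14. Its closest relative USP13 went from 31.6, 35.7 and 33.8 CPM to 23.5, 23.2 and 23.9 CPM in empty-vector cells (-0.52, SE 0.064, adjusted p = 4e-07), and changed by -0.64 in USP18 cells. USP14, the protease bound to the proteasome, changed by -0.31 and -0.38 (adjusted p = 7.1e-07 and 2.6e-08). OTUB2 of this group rose by 0.71 and 0.37 (adjusted p = 2.3e-05 and 0.0089).

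USP53, which associates with tight junctions, rose in both cell types. It went from 54.5, 52.9 and 55.4 CPM to 104, 101 and 95 CPM in empty-vector cells (0.87, SE 0.044, adjusted p = 1.7e-13), and from 68.4, 63.5 and 64.9 CPM to 129, 129 and 124 CPM in USP18 cells (0.95, SE 0.042, adjusted p = 1.6e-14). No treated library overlapped vehicle. USP36, the nucleolar deubiquitinase, rose by 0.57 and 0.76, from 69.0, 63.9 and 65.5 to 99.0, 105 and 91.2 CPM in empty-vector cells.

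The promoters of USP53 and USP36 on one side and of USP5 and USP13 on the other are shown because these were the largest rises and falls called in both cell types whose promoter had an entry in the RefSeq table used here (GRCh38.p14), which held 41 of the 52 members. Each run is the 250 bases before the RefSeq start, 5′ to 3′ on the gene's strand, at chr4:119212463-119212712 (+, USP53), chr17:78840815-78841064 (-, USP36), chr12:6851900-6852149 (+, USP5) and chr3:179652790-179653039 (+, USP13). In GENCODE v44 the genes begin earlier, so the USP36 window lies wholly within that gene's span. The USP53 window does so in part, from position 119212587 on, and those of USP5 and USP13 by their last few bases. Capitals mark matches, on either strand, to the motif GGGCGG, to the motif CCAAT or to the motif TGACNNNGC.
USP53: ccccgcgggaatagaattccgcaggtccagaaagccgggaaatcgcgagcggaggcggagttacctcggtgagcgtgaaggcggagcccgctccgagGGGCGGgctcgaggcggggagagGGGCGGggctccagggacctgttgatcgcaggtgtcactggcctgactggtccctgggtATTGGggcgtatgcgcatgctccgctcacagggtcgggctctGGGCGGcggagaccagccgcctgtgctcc
USP36: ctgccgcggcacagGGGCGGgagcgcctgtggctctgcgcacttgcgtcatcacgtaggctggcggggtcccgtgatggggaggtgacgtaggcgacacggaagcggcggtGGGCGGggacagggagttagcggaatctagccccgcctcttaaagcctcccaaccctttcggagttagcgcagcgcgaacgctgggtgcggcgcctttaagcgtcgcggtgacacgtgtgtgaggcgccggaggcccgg
USP5: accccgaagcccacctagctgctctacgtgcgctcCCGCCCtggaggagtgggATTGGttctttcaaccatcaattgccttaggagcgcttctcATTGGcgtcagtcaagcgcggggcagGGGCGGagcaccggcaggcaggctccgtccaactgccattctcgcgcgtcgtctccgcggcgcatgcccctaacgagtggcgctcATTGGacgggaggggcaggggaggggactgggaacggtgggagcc
USP13: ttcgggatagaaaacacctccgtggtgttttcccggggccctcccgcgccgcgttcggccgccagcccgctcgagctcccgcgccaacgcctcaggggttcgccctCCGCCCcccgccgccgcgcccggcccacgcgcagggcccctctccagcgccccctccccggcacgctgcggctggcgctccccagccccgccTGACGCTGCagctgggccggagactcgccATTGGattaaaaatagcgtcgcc

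All 4 windows held GGGCGG, the letters of a GC box, which was found in 80.5% of the 41 member promoters and in 42.6% of all 35116 promoters of the table. Those 35116 were not limited to genes tested here and were not matched for base content. G and C made up 66.0 to 74.4% of the bases in the 4 windows. CCAAT was in USP53, USP5 and USP13, at 31.7% and 32.0%. TGACNNNGC, the core of an antioxidant response element, was in the USP13 window, in 14.6% of member promoters and in 10.9% of all. The other motifs searched on both strands were TGACTCA (0% of member promoters, 4.2% of all), TGACGTCA (0% and 1.65%), TTTCGCG (0% and 1.1%), TTTGAA (2.44% and 13.3%) and TGATGNAAT (2.44% and 0.888%), none of them in these 4 windows.

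**Figure D3:**
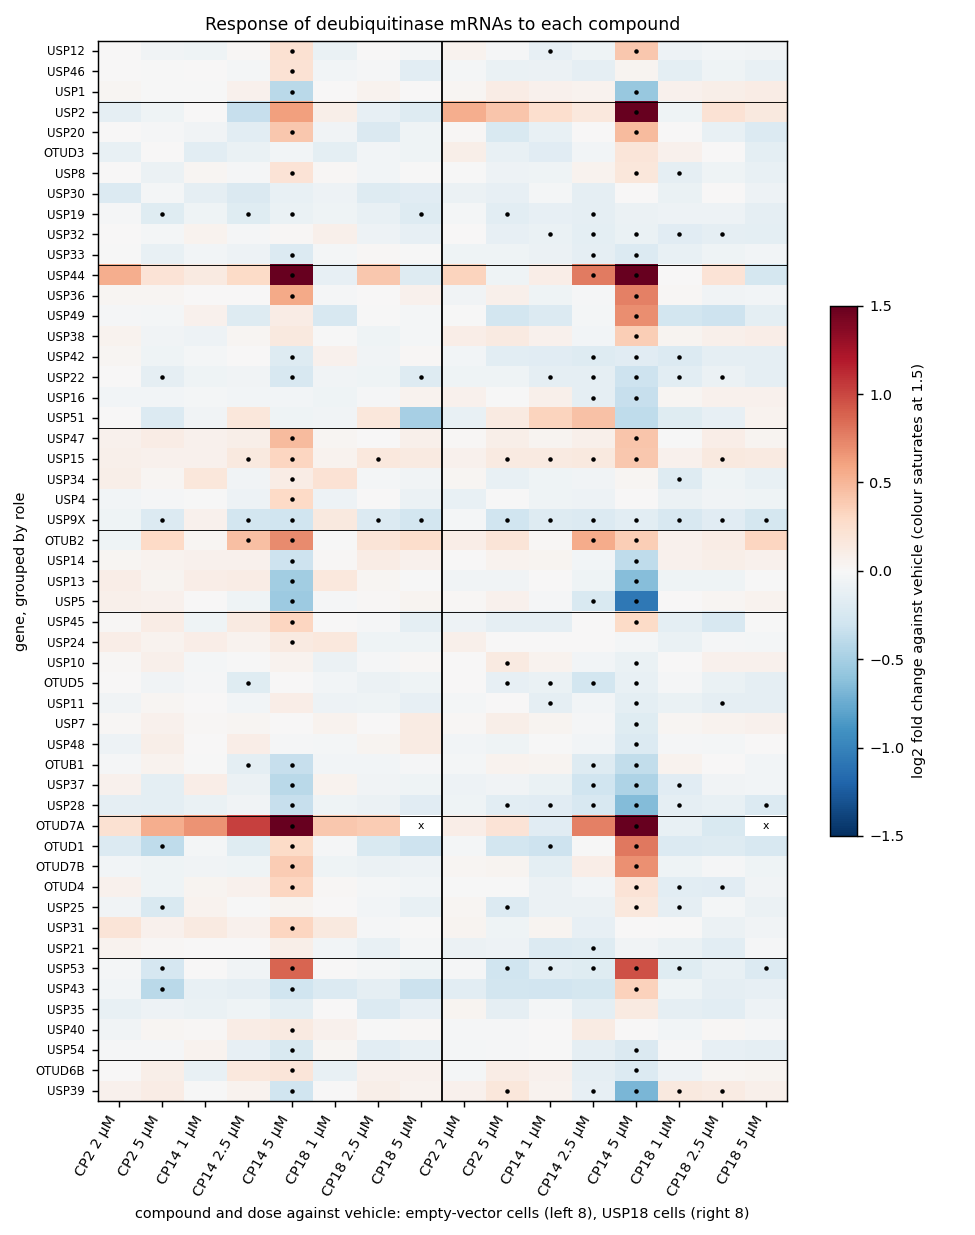
Log2 fold change against vehicle (colour, saturating at 1.5) of 52 deubiquitinase mRNAs (rows, grouped by role between the lines) with each compound and dose (columns, empty-vector cells left, USP18 cells right), 3 libraries per group. Dots mark an adjusted p under 0.05 and an x a gene that was not tested. The columns of 5 µM CP14 hold most of the strong colour, and the row of USP9X is marked in 12 of 16 columns.

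The members of NF-κB and innate immune signalling had 5 higher and 0 lower of 7 in each cell type, beside 31.0% (empty vector) and 34.4% (USP18) of all genes higher and 32.1% and 34.3% lower. Their medians were 0.32 and 0.20, and 0.01 over all genes. Among them were OTUD7B, known as Cezanne, at 0.38 and 0.69 (adjusted p = 2.9e-06 and 2.9e-10) and OTUD4 at 0.32 and 0.20. USP1, of the UAF1 group, fell from 73.2, 74.9 and 77.9 CPM to 59.1, 57.2 and 54.3 CPM in empty-vector cells (-0.41, SE 0.044, adjusted p = 5.6e-08) and changed by -0.57 in USP18 cells, while USP12 rose by 0.23 and 0.41. The chromatin proteases split, with USP44 and USP36 higher and USP22 and USP42 lower in both cell types. USP22 changed by -0.24 and -0.31 (adjusted p = 3.9e-07 and 5.6e-09). Of 5 members of TGF-β and WNT signalling, USP15 and USP47 rose in both (0.32 and 0.40 for USP15, 0.48 and 0.42 for USP47), and USP9X fell in both (-0.30 and -0.16). In the endosome, receptor and membrane group, USP8, which acts with the ESCRT machinery, rose by 0.21 and 0.17, USP20 rose by 0.40 and 0.47, and USP33 fell in both (-0.20 and -0.20). The members called in neither cell type were USP21, USP30, USP35, USP51 and OTUD3. Exons of USP47 share 41.4% of their bases with the antisense gene DKK3.

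For the 10 members of DNA damage, p53 and checkpoints, 2 rose and 3 fell in empty-vector cells, and 1 rose and 8 fell in USP18 cells, beside the same shares of all genes. The median was 0.01 and -0.16, and 0.01 over all genes in each cell type. USP28, which binds 53BP1 and stabilises MYC, went from 48.7, 47.5 and 48.6 CPM to 34.2, 27.1 and 31.1 CPM in USP18 cells (-0.65, SE 0.065, adjusted p = 1.2e-08), and changed by -0.34 in empty-vector cells. OTUB1, which inhibits the ubiquitin-conjugating enzyme UBE2N, fell in both (-0.35 and -0.37). USP10 and USP7 changed by -0.10 and -0.18 in USP18 cells (adjusted p = 0.02 and 0.00021) and by 0.05 and 0.01 in empty-vector cells, where neither was called.

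USP39, a splicing factor with a USP fold that lacks protease activity, went from 90.2, 94.4 and 95.4 CPM to 60.3, 55.9 and 58.6 CPM in USP18 cells (-0.69, SE 0.044, adjusted p = 1.1e-11). Its change in empty-vector cells was -0.30 (adjusted p = 3.4e-06), from 85.8, 87.5 and 92.4 CPM to 70.5, 75.0 and 70.7 CPM. Treated and vehicle libraries did not overlap in either cell type.

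Whether the response to 5 µM CP14 differed between USP18 and empty-vector cells was tested as an interaction. It was called for 18 of 52 members (34.6%, beside 27.7% of all genes), with 12 responses more negative and 6 more positive in USP18 cells, beside 14.4% and 13.3% of all genes. The smallest p-values belonged to USP5 (-0.53, SE 0.055, adjusted p = 3.7e-07), USP39 (-0.38, SE 0.062, adjusted p = 9.1e-05) and USP16 (-0.31, SE 0.065, adjusted p = 0.0011). USP16, a histone H2A protease, was at 56.0, 58.5 and 55.4 CPM with vehicle and at 56.7, 52.8 and 56.7 CPM with 5 µM CP14 in empty-vector cells, and went from 62.9, 63.3 and 62.8 CPM to 52.0, 48.7 and 48.8 CPM in USP18 cells. Only the latter groups stood apart.

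Of the DNA damage and p53 group, 6 of 10 had a more negative response in USP18 cells and 0 a more positive one (USP28, USP11, USP7, USP48, USP24 and USP10), beside 14.4% and 13.3% of all genes. More positive in USP18 cells were USP2 (1.15, adjusted p = 0.034), USP43 (0.63, adjusted p = 0.0061), USP49 (0.58, adjusted p = 0.013), OTUD1 (0.50), OTUD7B (0.31) and USP12 (0.18). USP43 went from 5.17, 5.56 and 6.74 CPM to 7.51, 7.22 and 7.47 CPM in USP18 cells, and from 8.00, 9.03 and 7.62 CPM to 6.76, 7.04 and 6.23 CPM in empty-vector cells. USP49 rose from 6.42, 7.22 and 6.5 CPM to 10.5, 11.1 and 11.2 CPM in USP18 cells (0.70), whereas its libraries overlapped in empty-vector cells. The count of 18 dropped to 11 without replicate 2 of 5 µM CP14 in USP18 cells. USP18 mRNA itself rose by 0.64 on the log2 scale with 5 µM CP14 in USP18 cells and changed by -0.18 in empty-vector cells, and its part in these differences was not tested.

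**Figure D4:**
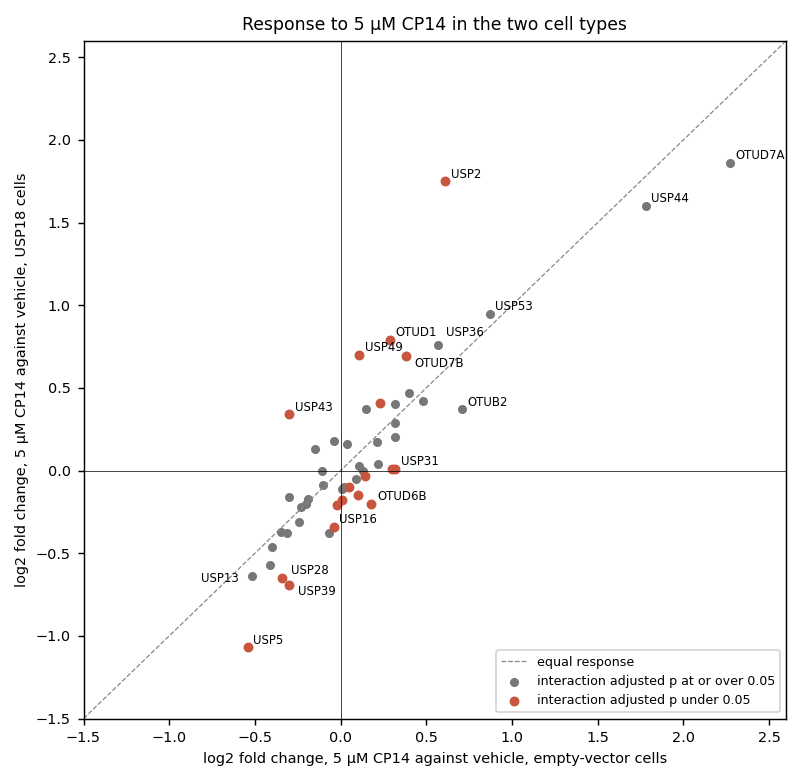
Response to 5 µM CP14 as log2 fold change over vehicle, in empty-vector cells on the x axis and USP18 cells on the y axis, for 52 deubiquitinase mRNAs, each from 3 libraries per group. Red points have an interaction with an adjusted p under 0.05, grey points do not, and the dashed line marks equal responses. USP5 lies below the line at -0.54 and -1.07, and USP2 above it at 0.61 and 1.75.

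At 2.5 µM CP14, 6 members were called in empty-vector cells (11.5%, beside 15.1% of all genes) and 18 in USP18 cells (34.6%, beside 32.7%). OTUB2 rose in both (0.45 and 0.56) and USP15 rose by 0.15 in both. USP9X (-0.27 and -0.21), USP19 (-0.18 and -0.14), OTUD5 (-0.18 and -0.27) and OTUB1 (-0.15 and -0.19) fell in both. Further calls in USP18 cells included USP37 (-0.30), USP28 (-0.24), USP5 (-0.23) and USP44 (0.78). Of these responses, the interaction was called for USP5 (-0.17, adjusted p = 0.045) and, besides it, for OTUD6B (-0.29, adjusted p = 0.03), 2 of 52 members beside 8.00% of all genes. USP5 was at 155, 162 and 160 CPM with 2.5 µM CP14 in USP18 cells, below all vehicle libraries of USP18 cells. In empty-vector cells it was at 157, 158 and 161 CPM. The count of 6 became 2 without vehicle replicate 1 and 3 without CP14 replicate 3, the count of 18 became 11 without vehicle replicate 2, and the count of 2 interactions dropped to 0 or 1 in 9 of 12 fits that left out 1 library.

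At 1 µM, the lowest dose, no member was called in empty-vector cells with CP14 (0 of 52 with edgeR, 5 at an unadjusted p under 0.05, 1 with DESeq2, beside 0.861% of all genes) or with CP18 (0, 8 and 1, beside 0.368%). In USP18 cells CP14 gave 10 calls, 9 of them lower (19.2%, beside 15.3% of all genes called and 7.94% lower), and CP18 gave 12, 11 of them lower (23.1%, beside 15.7% called and 8.00% lower). USP9X, USP22, USP28, USP32 and USP53 were lower with each compound, by 0.10 to 0.24 on the log2 scale, and both comparisons share the vehicle libraries. USP22 changed by -0.13 with CP14 (adjusted p = 0.00062) and by -0.16 with CP18 (adjusted p = 0.00044).

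These small changes at 1 µM depended on single libraries, and the CP14 count in USP18 cells also on the processing. It was 6 with DESeq2, and below 10 with no filter on low counts and in the fit of all 54 libraries. The CP14 count was 4 without vehicle replicate 1, 5 without vehicle replicate 3 and 3 without CP14 replicate 2, and the CP18 count was 6 without vehicle replicate 1 and 5 without CP18 replicate 3. The interaction was called for USP9X, USP34 and USP32 with 1 µM CP14 (-0.25, -0.23 and -0.15, beside 5.79% of all genes) and for USP34, USP9X, USP32 and USP8 with 1 µM CP18 (-0.41, -0.39, -0.25 and -0.16, beside 7.19%). USP9X, which acts on SMAD4 and MCL1, was at 442, 505 and 507 CPM with 1 µM CP18 in empty-vector cells, against 443, 447 and 422 CPM with vehicle, and at 357, 327 and 305 CPM in USP18 cells, against 389, 390 and 392 CPM. The 3 calls with CP14 dropped to 0 or 1 in 8 of 12 fits that left out 1 library.

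CP2 changed no member at 2 µM with edgeR in either cell type (7 and 1 at an unadjusted p under 0.05, 0 and 0 with DESeq2, beside 1.84% and 1.13% of all genes called). At 5 µM, 7 members fell in empty-vector cells (13.5%, beside 12.1% of all genes called and 6.83% lower), and 6 fell and 3 rose in USP18 cells (17.3%, beside 19.0%). For the latter, shares of all genes by direction were not counted. USP10, USP15 and USP39 were the 3 that rose, by 0.14 to 0.17. USP53 fell in both cell types (-0.25 and -0.30, adjusted p = 0.0098 and 0.001), as did USP9X (-0.20 and -0.30), USP25 (-0.23 and -0.21) and USP19 (-0.18 and -0.16). USP53 was at 50.4, 45.0 and 40.6 CPM with 5 µM CP2 in empty-vector cells and at 52.5, 52.7 and 55.6 CPM in USP18 cells, in each case below the vehicle libraries, whereas 5 µM CP14 raised it. The counts were 4 without vehicle replicate 2 in empty-vector cells, and 5 without vehicle replicate 1 or 3 in USP18 cells.

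With CP18, 2 members were called in empty-vector cells at 2.5 µM (USP9X at -0.20 and USP15 at 0.16, beside 5.96% of all genes) and 7 in USP18 cells (13.5%, beside 14.2%). At 5 µM, where the empty-vector replicates were least alike, 51 members were tested and 3 fell in each cell type (5.88%, beside 8.40% and 10.7% of all genes called and 4.30% and 6.40% lower), USP9X (-0.27), USP19 and USP22 in empty-vector cells and USP9X (-0.26), USP28 and USP53 in USP18 cells. The interaction was called for 0 members at these doses of CP18 and at either dose of CP2 (at most 1 at an unadjusted p under 0.05, and 0 with DESeq2). Among all genes it was called for 0.197% and 0.268% with 2.5 and 5 µM CP18 and for 0.0569% and 0.920% with 2 and 5 µM CP2. Single libraries moved the CP18 counts too. At 2.5 µM the count of 2 became 1 without vehicle replicate 1 or 2 or CP18 replicate 3, and the count of 7 became 4 without vehicle replicate 1. At 5 µM the count in empty-vector cells became 5 without CP18 replicate 3. The count in USP18 cells became 1 without vehicle replicate 1 or 3 or CP18 replicate 1 or 2, and was higher in the fit of all 54 libraries.

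Across the 16 comparisons with vehicle, USP9X was called lower in 12 and higher in 0, and USP22 lower in 8 and higher in 0. The 8 comparisons within a cell type use the same 3 vehicle libraries, so these calls are not independent of each other. USP15, a regulator of TGF-β receptor signalling, was called higher in 8 and lower in 0. OTUD3, USP30, USP35 and USP51 were called in none. USP53 was called lower in 6 comparisons and higher in the 2 of 5 µM CP14. How often genes outside the members were called across these 16 comparisons was not counted here, so these tallies are descriptions.

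Compounds were compared with each other at matched doses in 10 comparisons, 5 in each cell type. At 1 µM, CP14 and CP18 differed in no member with edgeR (0 called in either cell type, 1 and 6 at an unadjusted p under 0.05, 0 and 0 with DESeq2, beside 0.0191% of all genes in each). For 48 of 52 members in each cell type the 95% interval of the difference lay within 0.5 on the log2 scale. At 2.5 µM, 0 members differed in empty-vector cells (6 at an unadjusted p under 0.05, 0 with DESeq2, beside 1.80%). In USP18 cells 11 differed (21.2%, beside 28.2%), 3 higher and 8 lower with CP14. Shares of all genes by direction were not counted for this comparison. There OTUB2 was 0.45 higher (adjusted p = 0.0062), and USP5 (-0.25, adjusted p = 8.1e-06), USP39 (-0.23, adjusted p = 8.2e-05) and USP37 (-0.25, adjusted p = 0.0024) were lower with CP14.

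At 5 µM, CP14 differed from CP18 in 33 members in each cell type (63.5%, beside 57.5% and 64.9%) and from CP2 in 30 and 36 (57.7% and 69.2%, beside 59.4% and 67.5%). USP44 was higher with CP14 than with CP18 by 1.98 and 1.87, and USP5 differed by -0.57 and -1.12, all with an adjusted p of at most 1.6e-05. USP53 was higher with CP14 than with CP2 by 1.13 and 1.23. CP18 and CP2 at 5 µM differed in 0 of 52 members in either cell type (4 and 1 at an unadjusted p under 0.05, 0 and 0 with DESeq2, beside 0.0257% and 0.00641% of all genes). For 48 of 52 the interval lay within 0.5, and the exceptions were the scarce USP2, USP44, OTUD7A and USP51, whose intervals reached 1.22 and 1.77. Which compound each code stands for is not given by the labels, and no structure is assigned to them here.

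**Figure D5:**
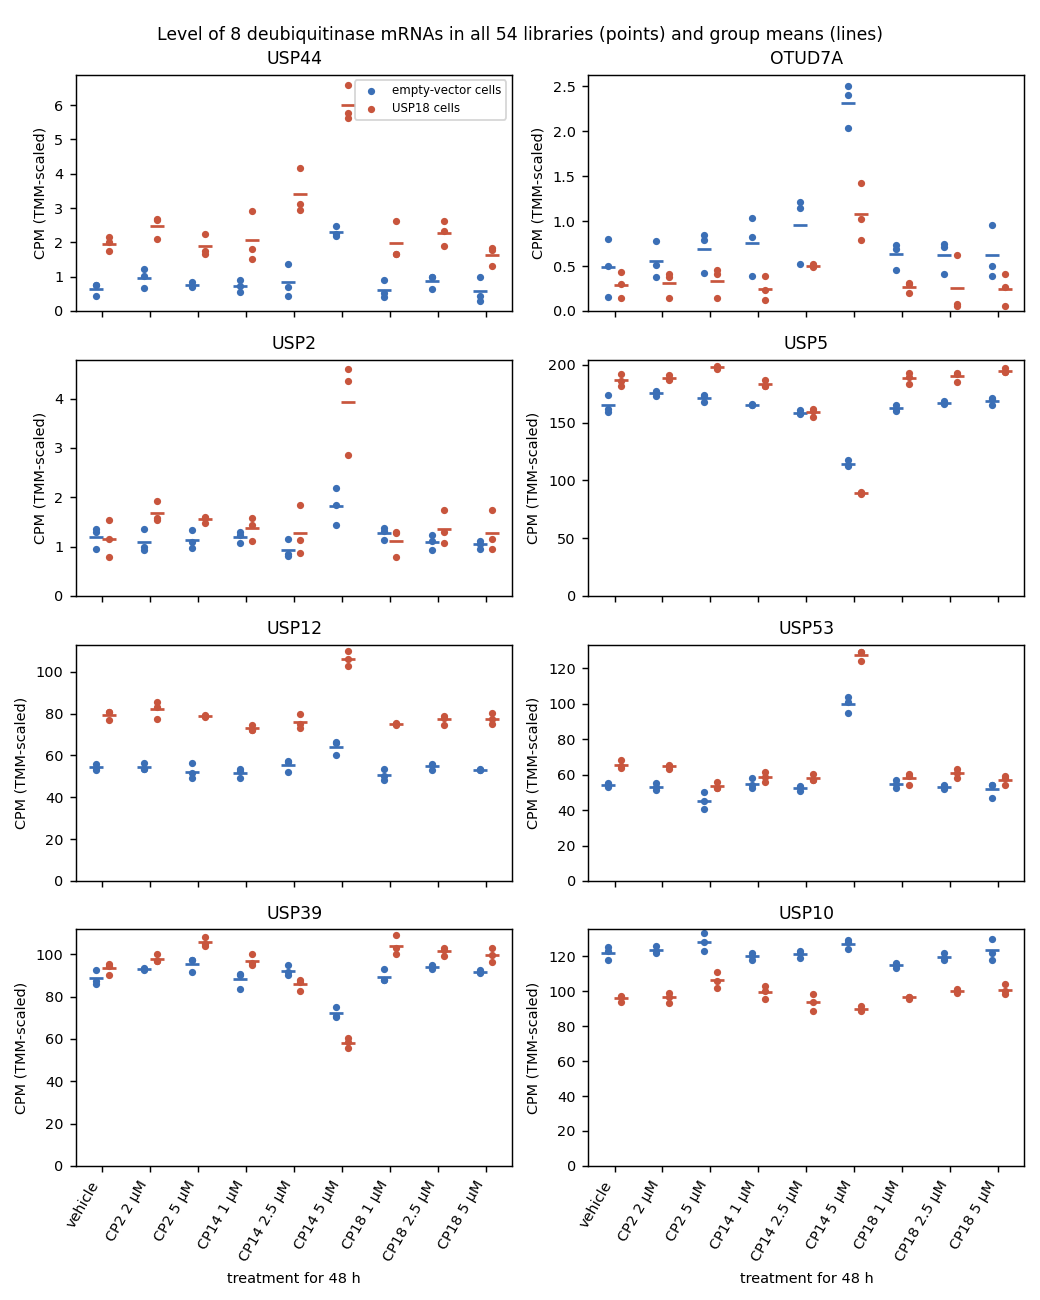
Levels in CPM (y axes, from 0) of 8 deubiquitinase mRNAs in each of 54 libraries (points) by treatment (x axis) in empty-vector cells (blue) and USP18 cells (red), with lines at group means. USP44, OTUD7A, USP2 and USP53 are highest with 5 µM CP14 in each cell type and USP5 and USP39 lowest, while USP10 keeps USP18 libraries below empty-vector libraries in every treatment.

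Genes of deubiquitinase families outside the list were counted in the same fits. Some of them, such as COPS6, EIF3H and PAN2, are not active deubiquitinases. In these fits 5 µM CP14 gave 31.0% (empty vector) and 34.4% (USP18) of all genes higher and 32.1% and 34.3% lower. Of 16 further USP and OTU genes, 11 were tested, and with 5 µM CP14, 4 rose and 2 fell in empty-vector cells and 6 rose and 3 fell in USP18 cells. TNFAIP3 (A20), a brake on NF-κB, rose by 1.58 and 1.51. USP41, a close copy of USP18, is counted among the genes that rose in each cell type. In empty-vector cells its change was uncertain, at 3.63 (SE 1.5, interval 0.53 to 6.73, edgeR adjusted p = 0.039). In USP18 cells its change was 0.63, beside 0.64 for USP18 itself. USP41 was 12.06 higher in USP18 cells with vehicle and 9.01 higher as the mean over 9 treatments. Its reads cannot be told apart from those of the USP18 vector here. A further list held the UCH, Josephin, JAMM and MINDY families and, from a different family, ZUP1. Of its 23 tested genes, 14 rose and 4 fell in empty-vector cells and 11 rose and 6 fell in USP18 cells. The medians were 0.20 and 0.15, and 0.01 over all genes in each. The largest rises were those of STAMBPL1 (1.47 and 0.90) and JOSD1 (0.97 and 1.35).

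Among 11 partners of the members, 5 fell and 1 rose in empty-vector cells with 5 µM CP14, and 6 fell and 4 rose in USP18 cells, against 63.2% and 68.6% of all genes called. Their medians were -0.10 and -0.09. ENY2, a subunit of the USP22 module, changed by -0.62 and -0.41. G3BP1, the partner of USP10, changed by -0.29 and -0.58, and HGS, an endosomal sorting protein that recruits deubiquitinases, by 0.22 and 0.52.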

How the data were processed

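RNA of A549 cells was sequenced in 54 libraries, 3 for each of 18 groups taken from the sample labels. Per the labels, the authors used bcl2fastq, cutadapt 1.18, STAR 2.7.0f and RSEM 1.3.1 with hg38. The study's text names a ribosomal depletion kit and the labels a poly(A) kit, and this was not resolved. The authors deposited RSEM expected counts per gene, of which 94% of values were whole numbers, and no column lacked a sample.

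Expected counts were rounded and tested with edgeR 4.0.16 (quasi-likelihood F test, TMM scaling, genes kept by filterByExpr at 10 counts and 15 in total, Benjamini-Hochberg adjustment over all genes) in R 4.3.3 with limma 3.58.1. A member was called at an adjusted p under 0.05, and counted again with an absolute log2 fold change over 1. The vehicle vector difference was fitted on 6 libraries, each compound with vehicle, or each pair of compounds, on 12, and the vector difference over 9 treatments on 54. Fold changes are log2, intervals cover 95%, and CPM were scaled by TMM over all 54 libraries. Gene coordinates are those of GENCODE v44 on GRCh38. The fitting was tested on simulated data. Alternatives were DESeq2 1.42.0, DESeq2's size factors within edgeR (RLE), no filter on low counts, a replicate block, fits of all 54 libraries together, and fits without 1 library at a time.

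The members (selected by symbol, with no measured value in the rule), the roles and the lists were chosen with earlier results of these data known. Values per library were given, by rule, for members past a log2 change of 1, for the 3 largest non-overlapping rises and falls in the vehicle vector comparison and with 5 µM CP14 in each cell type, for the 3 smallest interaction p-values and for OTUD7A. Values per library of other members, or in comparisons other than the one that named a member, were added after they were seen. No protein sequence was used here. Results of some further genes are not reported here.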

Additional observations from a re-analysis of the deposited data

Results flagged for a closer look

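Responses to a compound that differed between USP18 and empty-vector cells by the interaction test (edgeR, adjusted p under 0.05, log2 difference of responses, USP18 minus empty-vector cells) are collected here. With 1 µM CP14 they were USP9X (-0.25), USP34 (-0.23) and USP32 (-0.15), and with 1 µM CP18 USP34 (-0.41), USP9X (-0.39), USP32 (-0.25) and USP8 (-0.16). With 2.5 µM CP14 they were OTUD6B (-0.29) and USP5 (-0.17).

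With 5 µM CP14, responses were more negative in USP18 cells for USP5 (-0.53), USP39 (-0.38), OTUD6B (-0.38), USP31 (-0.32), USP28 (-0.31), USP16 (-0.31), USP4 (-0.29), USP11 (-0.24), USP7 (-0.19), USP48 (-0.19), USP24 (-0.16) and USP10 (-0.15). They were more positive for USP2 (1.15), USP43 (0.63), USP49 (0.58), OTUD1 (0.50), OTUD7B (0.31) and USP12 (0.18). The 3 calls with 1 µM CP14 dropped to 0 or 1 in 8 of 12 fits that left out 1 library and to 0 in the fit of all 54 libraries, and the 2 with 2.5 µM CP14 to 0 or 1 in 9 of 12. USP9X, USP34 and USP32 were among the calls with 1 µM of both compounds, comparisons that share the 6 vehicle libraries. USP5 and OTUD6B were called at both 2.5 and 5 µM CP14.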

How the results depend on the processing

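None of the 25 named values reversed its direction under the alternatives that gave it a value (24 of them with DESeq2, 23 in the fit of all 54 libraries). Of the 36 counts of called members, RLE scaling kept all within 1.5 times, the replicate block 34, no filter on low counts 33, DESeq2 30 and the fit of all 54 libraries 30 of 35. Of the single members named by rule, USP49 with vehicle alone lost its call, with DESeq2 (-0.39, adjusted p = 0.054). The causes were not tested.

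The counts that moved were small ones. With DESeq2 the count was 4 for 5 µM CP2 in empty-vector cells (7 in the edgeR test), 1 for 1 µM CP14 and 1 for 1 µM CP18 in empty-vector cells (0 each), 6 for 1 µM CP14 in USP18 cells (10), 4 for 2.5 µM CP18 in empty-vector cells (2) and 1 for the 2.5 µM CP14 interaction (2). Without a filter it was 1 for 1 µM CP14 and 3 for 1 µM CP18 in empty-vector cells, and 6 for 1 µM CP14 in USP18 cells. In the fit of all 54 libraries it was 4 for 1 µM CP14 and 4 for 2.5 µM CP18 in USP18 cells (7), 1 for 2.5 µM CP18 in empty-vector cells, 8 for 5 µM CP18 in USP18 cells (3) and 0 for the 1 µM CP14 interaction (3).

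Same-numbered replicates did not deviate together: in 0 of 17 comparisons was every pair's correlation over 0.1 (range -0.29 to 0.18), and in 2 of 17 every library correlated best with its own number. With a replicate block the count was 1 for 1 µM CP18 in empty-vector cells (0 without) and 1 for the 2.5 µM CP14 interaction (2 without), and other calls were within 1.5 times.

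Leaving out 1 library at a time gave 29 to 32 calls for the vehicle vector difference, and leaving out 1 replicate number at a time (3 fits) gave 45 to 47 for its mean over 9 treatments. In empty-vector cells it gave 0 to 1 for 2 µM CP2, 4 to 7 for 5 µM CP2, 2 to 6 for 2.5 µM CP14, 32 to 35 for 5 µM CP14, 0 to 2 for 1 µM CP18, 1 to 3 for 2.5 µM CP18 and 2 to 5 for 5 µM CP18. The 1 in 2 µM CP2 came without vehicle replicate 1 and the 2 in 1 µM CP18 without CP18 replicate 1. In USP18 cells it gave 5 to 7 for 5 µM CP2, 3 to 9 for 1 µM CP14, 11 to 17 for 2.5 µM CP14, 34 to 40 for 5 µM CP14, 5 to 10 for 1 µM CP18, 4 to 7 for 2.5 µM CP18 and 1 to 4 for 5 µM CP18. Interactions ran from 0 to 2 at 1 µM and at 2.5 µM CP14, from 11 to 19 at 5 µM CP14 and from 3 to 6 at 1 µM CP18. Between compounds the counts ran from 8 to 11 for CP14 and CP18 at 2.5 µM in USP18 cells, from 28 to 33 and 32 to 34 at 5 µM, and from 24 to 29 and 32 to 36 for CP14 and CP2. All members given by rule kept their calls, with USP44 between 1.38 and 1.68 with vehicle. The scarce USP44, USP2, OTUD7A and USP51 had the widest intervals.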
